A study of Mus musculus with 11 samples.

Results

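Genes of sterol synthesis, sensing and transport were examined in epididymal white adipose tissue (eWAT) of mice with a disrupted paternal allele of the imprinted gene Mest. The 30 genes were taken from a list of gene symbols. All 30 were found among the 15453 genes of the files, 29 under the listed symbol and Msmo1 under its older symbol Sc4mol. They were grouped as 18 synthesis enzymes, 4 sensing genes, 5 transport genes and 3 genes of cholesterol ester formation and breakdown. Tissue came from 6 wildtype (WT) and 5 pKO male C57BL/6 mice (C57BL/6J in the study's methods) at 16 weeks of age. In both genotypes a high fat diet was given from 8 weeks of age. The pKO mice had a Mest+/- genotype with exon 3 deleted on the allele inherited from the father and an intact maternal allele. The deletion was made in the germline with Ella-cre, so all tissues carried it, and WT females were crossed with males carrying the allele to give both genotypes. Expression was measured by SAGE (serial analysis of gene expression), where each transcript is read as a short tag beside its last NlaIII site, so that levels do not scale with transcript length. Values are normalized tags, the tag count of a gene over a size factor for its library.

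Recovered totals were 9659740 to 14825727 tags for WT and 11320342 to 14626803 for pKO (exact permutation test, p = 0.825). In normalized units, 1 tag was worth 0.836 to 1.19. Mest, the targeted gene, lay between 20756 and 27897 for WT and between 793 and 2275 for pKO, and its log2 fold change (pKO minus WT, here and throughout) was -3.99 with adjusted p = 1.2e-06 in limma. Its predicted tag lies in the last exon, exon 13, outside the deleted exon, and so does not measure the deletion itself. All 7 adipocyte markers, among them Adipoq and Plin1, were present and none was called as different between genotypes. The only epididymis marker in the files, Adam7, reached at most 43.8 normalized tags.

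Cholesterol is built from acetyl-CoA through mevalonate, farnesyl diphosphate, squalene and lanosterol. When sterol in the endoplasmic reticulum is low, SCAP escorts the transcription factor SREBP2, encoded by Srebf2, to the Golgi, where it is cut and released to turn on the synthesis genes, and INSIG proteins hold the complex back when sterol is high. Adipose tissue is a large store of unesterified cholesterol, much of it at the surface of lipid droplets, and the macrophages of obese fat store it as esters.

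The tag predicted for each gene was located at the last CATG of its GENCODE transcript, together with the 22 bases that follow. The site lay in the 3' UTR in 26 of the 30 genes and in coding sequence in 4. Transcript forms with other last sites exist for 21 of the 30, and their tags may be split or counted together. The predicted tags below belong to the genes that differed most or whose values in single mice are described, with the NlaIII site CATG in capitals. On GRCm38 they lie at chr10:76555438-76555463 (Lss, plus strand, exon 22), chr1:156424774-156424799 (Soat1, minus strand, exon 16), chr3:27244915-27244940 (Nceh1, plus strand, exon 5), chr15:59331024-59331049 (Sqle, plus strand, exon 11), chr13:119707888-119707913 (Hmgcs1, plus strand, exon 11), chr5:114460523-114460548 (Mvk, plus strand, exon 11) and chr5:28078586-28078611 (Insig1, plus strand, exon 5), all in the 3' UTR. The Fdps tag, at chr3:89093657-89093682 (minus strand, exon 11, coding), is shown because the same bases occur in transcripts of 5 other genes, so its values are uncertain. No other member shared its tag with another gene.
Lss: CATGatctgttttaacaaatacaact
Soat1: CATGtcaggagtcacaggagaaaaag
Nceh1: CATGcttgcaatcttgtttggaaata
Sqle: CATGtaaatataagccttactttaca
Hmgcs1: CATGtaatttttttgcaagtattgag
Mvk: CATGccgactgcctgtctccgtgtgg
Insig1: CATGtccgtgctaagtttgcagcatt
Fdps: CATGgaacttgcaaacaagatctaca

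The question put to these genes was whether loss of paternal Mest went with a change in sterol gene expression in obese fat. The study reports that the WT mice used for SAGE had a significantly higher ratio of fat to lean mass than the pKO mice. Genotype and adiposity thus differed together in these mice, and the part of adiposity in the values was not tested. Lss, a synthesis enzyme, and the ester genes Soat1 and Nceh1 were lower in pKO mice at an unadjusted p of at most 0.05, and 0 members were higher (limma). That rule also asks for a mean of 50 or more in a genotype, which 29 members met and Lcat did not. The 3 lower members were 10.3% of the 29, beside 5.77% of all 9906 genes of that level called lower and 4.85% called higher. At an adjusted p of at most 0.1, limma, edgeR and DESeq2 called 0 members, beside 0.0505% of all genes in limma, and the members' adjusted p-values ran from 0.393 to 0.964. The ranges of WT and pKO values did not separate for any member, in either direction, against 0.717% of all genes with pKO lower and 0.717% with pKO higher. The median log2 fold change of the 29 was 0.06, with 13 below and 16 above 0, and that of all 9906 genes was 0.01. The plot of genotype differences shows that the intervals of all but these 3 members spanned 0.

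**Figure D1:**
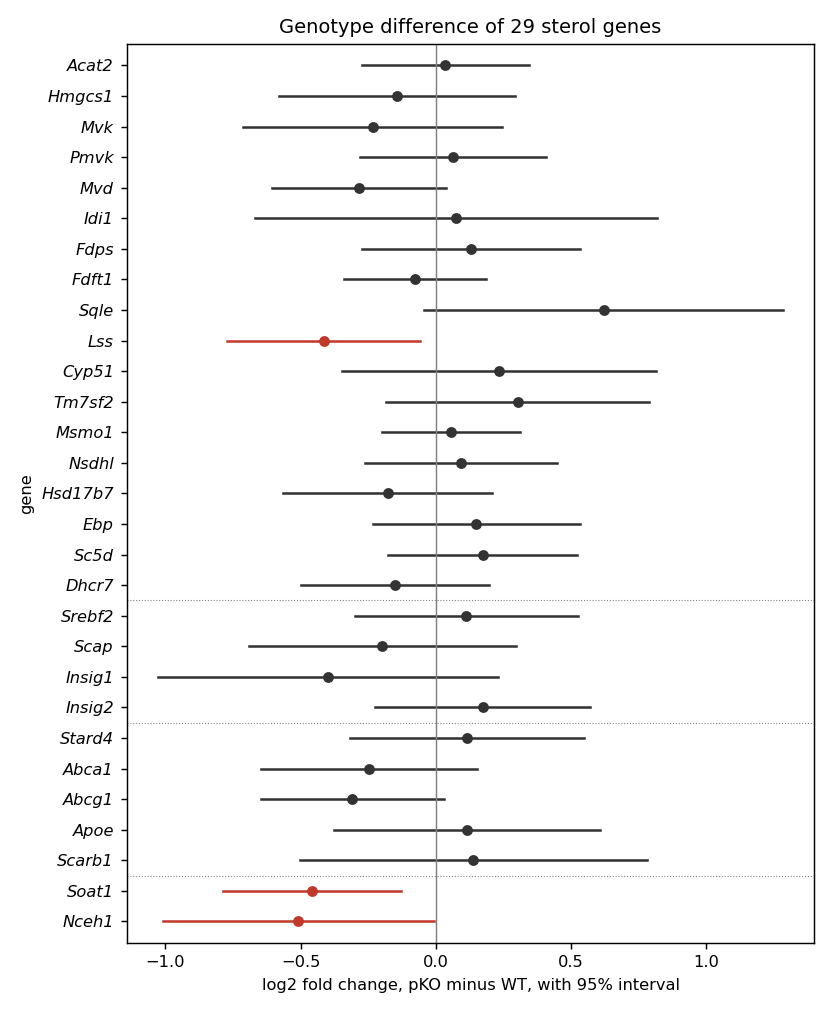
Log2 fold change of each member (pKO minus WT, x axis; point) with its 95% interval (line), for the 29 members that reached a mean of 50 in a genotype, grouped by dotted lines into synthesis, sensing, transport and ester genes. Red marks Lss, Soat1 and Nceh1, the 3 with an unadjusted p of at most 0.05, and the points run from -0.51 (Nceh1) to 0.62 (Sqle).

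Levels of the 30 genes spanned a wide range, and those with the most tags were not synthesis enzymes. The tag sites counted for each gene are not given, so ratios of tags between genes may differ from ratios of transcripts. Over the 11 mice, Apoe, the apolipoprotein of lipoprotein particles, averaged 30883 normalized tags and Insig1, the sterol-responsive retention protein, 25685. These 2 genes made up 69.2% of the members' tags, and they were above 99.7% and 99.6% of the 9906 genes. Among the synthesis enzymes the level did not follow the order of the pathway. Hmgcs1, which makes HMG-CoA before the mevalonate step, had the highest mean at 4023, followed by the late-acting desaturase Sc5d at 3682. The squalene epoxidase Sqle was the lowest at 58.3, a 69.0-fold range between the highest and the lowest enzyme. Srebf2 averaged 77.4 and its escort Scap 73.1. Lcat, the plasma enzyme that esterifies cholesterol on lipoproteins, was near the detection limit at 4.78. The median coefficient of variation of the members was 17.9% in WT and 21.9% in pKO mice, beside 15.5% and 23.2% for all genes.

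The ester genes had the lowest log2 fold changes of the 29. Soat1 encodes the acyltransferase that forms cholesterol esters in the endoplasmic reticulum. Its values in WT mice had a lowest of 202, a median of 282 and a highest of 298, and the pKO mice had 163, 213, 158, 229 and 224. Apart from WT5 at 202, every WT mouse was above every pKO mouse. The WT mean was 270 ± 35.2 (SD, n = 6) and the pKO mean 198 ± 34.4 (SD, n = 5), for a log2 fold change of -0.46 (standard error 0.15, 95% interval -0.79 to -0.13, p = 0.0103, adjusted p = 0.393, limma; exact permutation p = 0.0108). The call held with each of the 11 mice left out in turn.

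Nceh1 encodes a hydrolase that frees cholesterol from its esters. WT mice ranged from 141 to 316 with a median of 216, and the pKO mice had 115, 232, 117, 141 and 191. The pKO mice 1 and 3 were below all WT mice, and pKO2 was above the WT median. Means were 225 ± 61.8 (SD, n = 6) and 159 ± 50.8 (SD, n = 5), a log2 fold change of -0.51 (standard error 0.23, 95% interval -1.01 to -0.01, p = 0.0478, adjusted p = 0.519, limma; exact permutation p = 0.0823). The p rose above 0.05 without WT1, WT2, WT3, WT6, pKO1, pKO3 or pKO4. Lcat, the third ester gene, averaged 4.85 ± 2.78 (SD, n = 6) against 4.70 ± 3.88 (SD, n = 5), and with so few tags the 95% interval of its log2 fold change ran from -1.56 to 0.99.

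Soat1 and Nceh1 are expressed in macrophages, which are numerous in obese fat, and macrophage markers were set beside them. Of 10 macrophage markers, 4 (Itgax, Cd14, Trem2 and Gpnmb) were called lower in pKO mice at an unadjusted p of at most 0.05 and 0 higher. Of all 9906 genes, 5.77% were called lower. Emr1, Csf1r, Cd68, Mpeg1, Lyz2 and Mmp12 were not called. The most abundant markers were Mmp12 and Gpnmb, with WT means of 5650 and 3674. The summed level of the 10 ran from 8135 to 20008 with a median of 17164 for WT, and from 7348 to 13783 with a median of 11430 for pKO. None of the 10 was at 0, and the least abundant, Cd68, averaged 33.2 and 21.96. WT5, the lowest WT mouse for Soat1, had the lowest WT sum, whereas WT4, the lowest WT mouse for Nceh1 (141), had a sum of 18655, above all WT mice but WT6. The pKO mice 1 and 3, below the other pKO mice for both ester genes, had the lowest pKO sums, at 7348 and 8508. Emr1, which marks macrophages broadly, was at 856 ± 151 (SD, n = 6) and 865 ± 271 (SD, n = 5). Markers of other cell types also differed by the same rule. Called higher in pKO mice were 1 of 4 fibroblast markers (Dcn), 1 of 5 endothelial (Kdr) and 2 of 4 mesothelial (Msln and Krt19). None of these lists had a marker called lower, and 4.85% of all 9906 genes were called higher. The part of these markers in the ester gene values was not tested. In whole tissue, fewer cells of a type and less RNA per cell cannot be told apart.

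**Figure D2:**
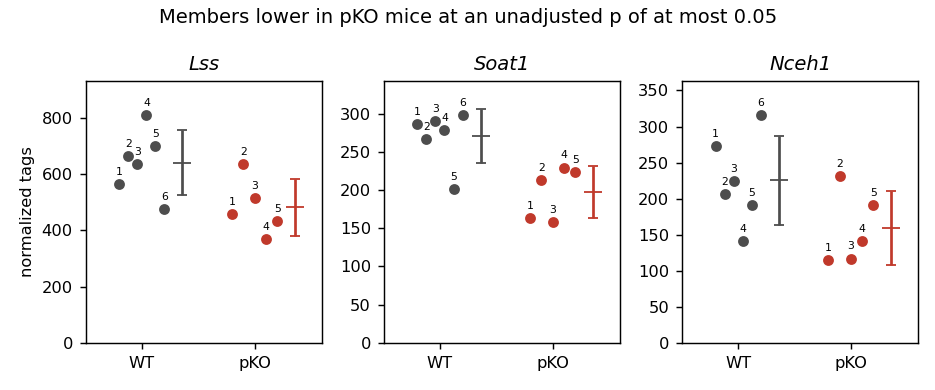
Normalized tags (y axis, from 0) of Lss, Soat1 and Nceh1 in each WT (grey, n = 6) and pKO (red, n = 5) mouse, numbered by replicate, with the mean and SD beside the points. For Soat1 the pKO mice lie between 158 and 229 and WT5, at 202, is the only WT mouse among them, while the genotypes overlap more for Lss and Nceh1.

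Synthesis enzymes as a group did not shift in a single direction. Of the 18, 1 was called lower and 0 higher, 7 log2 fold changes were below 0 and 11 above, and the median was 0.06. The called enzyme was Lss, lanosterol synthase, which folds oxidosqualene into lanosterol. Its WT values had a lowest of 475, a median of 649 and a highest of 809, and the pKO mice had 459, 636, 514, 368 and 433. All 5 pKO mice were below the WT mean, and 3 were below the lowest WT mouse. Means were 641 ± 115 (SD, n = 6) and 482 ± 100.8 (SD, n = 5), a log2 fold change of -0.41 (standard error 0.17, 95% interval -0.77 to -0.06, p = 0.0261, adjusted p = 0.467, limma; exact permutation p = 0.0390). The p rose above 0.05 when WT4, WT5, pKO4 or pKO5 was left out.

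Sqle, the epoxidase directly before Lss in the pathway, had the opposite sign. WT mice ranged from 28.6 to 62.9 with a median of 45.8, and the pKO mice had 83.3, 58.4, 113, 33.5 and 77.8. Of the 5 pKO mice 3 were above every WT mouse, and pKO4 was below the WT median. Means were 45.9 ± 15.2 (SD, n = 6) and 73.2 ± 29.5 (SD, n = 5), a log2 fold change of 0.62 (standard error 0.31, 95% interval -0.04 to 1.29, p = 0.0641, adjusted p = 0.544, limma; exact permutation p = 0.102). On recovered counts edgeR and DESeq2 both called Sqle higher, with log2 fold changes of 0.67 and 0.68, and limma did so without WT4, WT6 or pKO4. The mean of Sqle reached the minimum for a call in pKO mice only.

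None of the enzymes of the mevalonate steps was called in the main fit. Hmgcs1 ranged from 3468 to 5092 in WT mice (median 3989), and the pKO mice had 4788, 4269, 3919, 4409 and 2016. Its log2 fold change was -0.14 (standard error 0.20, 95% interval -0.58 to 0.29, adjusted p = 0.862, limma; exact permutation p = 0.677), from means of 4142 ± 588 (SD, n = 6) and 3880 ± 1088 (SD, n = 5). Mvk, mevalonate kinase, averaged 1405 ± 193 against 1250 ± 388, and Pmvk, the next kinase, 2158 ± 242 against 2299 ± 567 (WT against pKO, SD, n = 6 and n = 5). Mvd, the decarboxylase that gives isopentenyl diphosphate, was at 564 ± 71.3 and 468 ± 102, with a log2 fold change of -0.28 (95% interval -0.61 to 0.04, p = 0.0790, limma; exact permutation p = 0.0823). For Mvd, 4 of the 5 pKO mice were below the lowest WT mouse (471). Acat2, the cytosolic thiolase that starts the pathway, was at 1230 ± 160 and 1268 ± 219. Idi1, the isomerase that follows Mvd, varied widely within genotypes, from 214 to 522 for WT and from 156 to 682 for pKO.

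The remaining enzymes also overlapped between genotypes. Farnesyl diphosphate synthase, Fdps, was at 734 ± 189 and 793 ± 140, and squalene synthase, Fdft1, at 355 ± 35.1 and 337 ± 36.0 (SD, n = 6 and n = 5). After lanosterol, the demethylase Cyp51 was at 641 ± 229 and 757 ± 313 and the reductase Tm7sf2 at 96.5 ± 22.7 and 120 ± 31.0. The C4-demethylation genes Msmo1, Nsdhl and Hsd17b7 had log2 fold changes of 0.06, 0.09 and -0.18. Ebp, the sterol isomerase, and Sc5d, the desaturase, had 0.15 and 0.17. Dhcr7, which makes cholesterol in the last step of its branch, was at 146 ± 25.98 and 130 ± 18.1. The lowest adjusted p of the 18 was that of Lss.

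**Figure D3:**
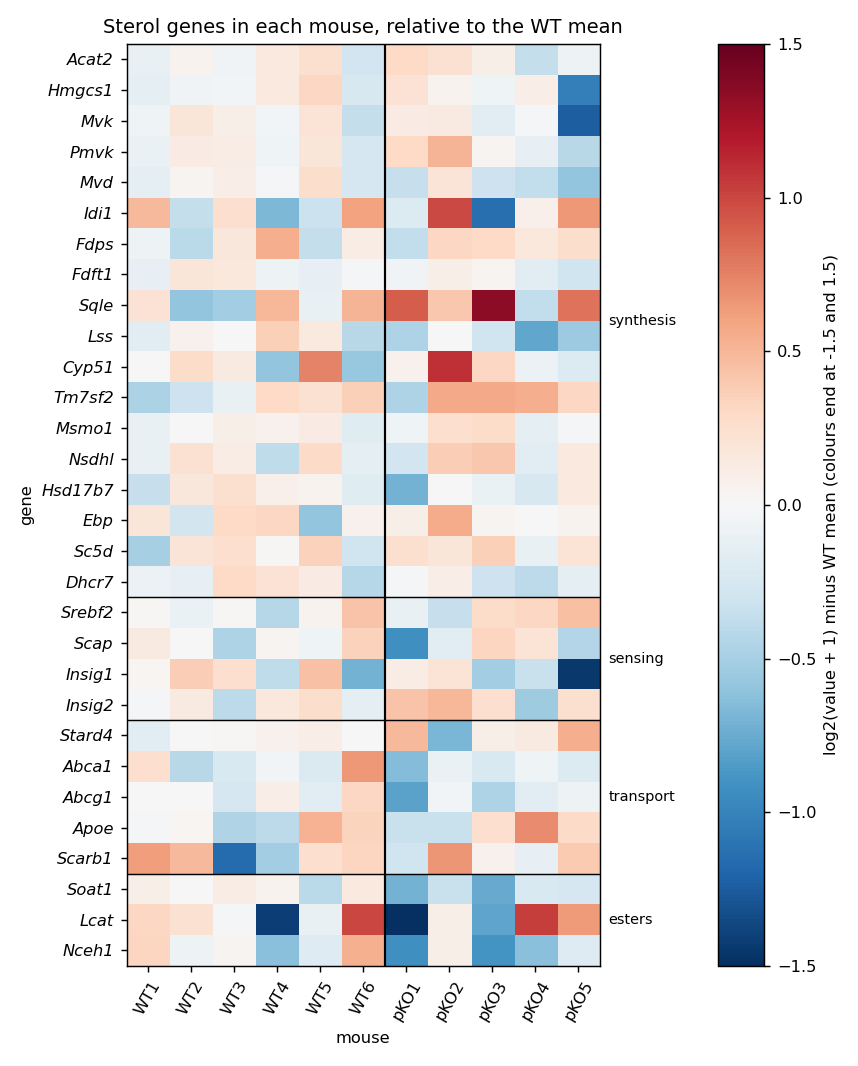
Each cell is log2(value + 1) of a member (y axis) in a mouse (x axis) minus the WT mean of that member, red above and blue below, with a vertical line between the 6 WT and 5 pKO mice and horizontal lines between the gene groups. The column of pKO2 is red in most synthesis rows, with 17 of 18 above the WT mean on this scale, and that of pKO5 is darkest blue at Hmgcs1, Mvk and Insig1.

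Several genes had a value in a single pKO mouse far from the mean of the remaining pKO mice. By Dixon's criterion, used below, only Fdps in pKO1 and Ebp in pKO2 stood apart among the pKO values. In pKO5, Hmgcs1, Mvk and Insig1 were at 46.4%, 41.6% and 39.3% of their mean over the 4 remaining pKO mice. Each was the lowest of the 11 mice, as were Pmvk, Mvd and Fdft1 in pKO5. The 6 members made up 20.7% of the 29, and 5 of them were synthesis enzymes (27.8% of 18), beside 16.3% of all 9906 genes in which pKO5 was lowest. In the same mouse Idi1 was at 145%, Sqle at 108% and Cyp51 at 65.0% of that mean, so the enzymes of that mouse did not move as a block. Without pKO5 the log2 fold change of Hmgcs1 went from -0.14 to 0.08, that of Mvk from -0.23 to 0.02 and that of Insig1 from -0.40 to -0.14. The summed lymphocyte markers were at 286 in pKO5, of which Cd79a made up 240.5, and at most 182 in WT mice. The summed fibroblast markers were also highest in pKO5, at 39975, of which Dcn made up 33497, against at most 32795 in WT mice. Col1a1 and Lum in pKO5 were below their WT means (3671.6 against 4337.4 and 1767.2 against 2148.1), and Pdgfra was slightly above its own. The part of these markers in the pKO5 values was not tested.

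In pKO2, by contrast, 17 of the 18 synthesis enzymes were above the WT mean of log2(value + 1), with a mean deviation of 0.34 on that scale. Over all 9906 genes the mean deviation of that mouse was 0.01, and 4541 of them were below the WT mean. Cyp51 in pKO2 was at 208% and Idi1 at 202% of the mean over the remaining pKO mice. With pKO2 left out, Mvd (log2 fold change -0.40) and Abcg1 (-0.38) were also called lower in limma, which made 5 lower members. Over all genes that fit called 844 lower, beside 572 with all mice. With pKO4 left out, Soat1 was the only lower member, and Sqle (0.87) and Insig2 (0.35) were called higher. Over all genes the fit without pKO4 called 664 lower and 508 higher, beside 572 and 480. Of the 23 alternative fits, Tm7sf2 was called higher in that without pKO1 alone (0.50).

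**Figure D4:**
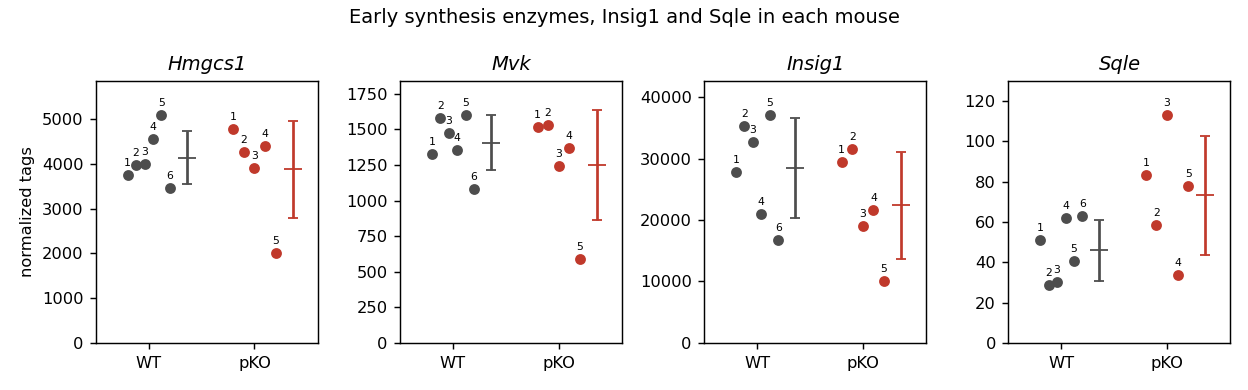
Normalized tags (y axis, from 0) of Hmgcs1, Mvk, Insig1 and Sqle in each WT (grey, n = 6) and pKO (red, n = 5) mouse, numbered by replicate, with the mean and SD beside the points. Mouse pKO5 is the lowest point for Hmgcs1 (2016), Mvk (588) and Insig1 (10012) but not for Sqle (77.8).

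None of the 4 sensing genes was called, and Insig1 had the largest difference among them. WT mice ranged from 16751 to 37054 for Insig1 with a median of 30263, and the pKO mice had 29481, 31617, 19045, 21655 and 10012. The values overlapped over most of the range, since WT6 at 16751 was below 4 of the 5 pKO mice. The means were 28454 ± 8147 (SD, n = 6) and 22362 ± 8665 (SD, n = 5), a log2 fold change of -0.40 (standard error 0.29, 95% interval -1.03 to 0.23, adjusted p = 0.690, limma; exact permutation p = 0.279). Insig2, its paralog, had 18.2-fold fewer tags, at 1319 ± 209 and 1516 ± 368. Srebf2 ranged from 54.4 to 98.5 in WT mice, with a median of 74.2, and the pKO mice had 67.8, 57.3, 88.5, 90.9 and 100.3. Its log2 fold change was 0.11 (standard error 0.19, 95% interval -0.30 to 0.53, adjusted p = 0.889, limma; exact permutation p = 0.545). Scap was at 76.6 ± 13.7 and 68.9 ± 22.7.

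None of the 5 transport genes was called either. Abcg1, which passes cholesterol to high density lipoprotein, was at 976 ± 135 (SD, n = 6) and 797 ± 165 (SD, n = 5), a log2 fold change of -0.31 (95% interval -0.65 to 0.03, p = 0.0708, limma; exact permutation p = 0.0801). Abca1, which loads cholesterol onto lipid-poor apolipoprotein, ranged from 888 to 1854 in WT mice (median 1084), and the pKO mice had 754, 1108, 1012, 1133 and 1026. Only pKO1 was below the lowest WT mouse. The log2 fold change of Abca1 was -0.25 (standard error 0.19, 95% interval -0.65 to 0.15, adjusted p = 0.6996, limma; exact permutation p = 0.255). Apoe ranged from 21012 to 41132 in WT mice (median 28795), and the pKO mice had 22881, 22764, 34238, 46993 and 35059. Its log2 fold change was 0.12 (standard error 0.23, 95% interval -0.38 to 0.61, adjusted p = 0.912, limma; exact permutation p = 0.649). Scarb1, the receptor that takes up cholesterol from high density lipoprotein, was at 1632 ± 639 and 1702 ± 471. Stard4, a cytosolic sterol carrier, had nearly the same level in all WT mice, 90.4 to 109, and 63.0 to 149 in pKO mice.

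A second list of 42 sterol genes was examined beside the members, and 41 were in the files. Of the 34 with a mean of at least 50, 5 were called lower (14.7%) and 2 higher (5.88%) at an unadjusted p of at most 0.05, beside the 5.77% and 4.85% of all genes. At an adjusted p of at most 0.1, 0 were called, and the lowest adjusted p was 0.257 (limma). Npc2, the lysosomal protein that binds cholesterol freed from lipoproteins, ranged from 7632 to 10304 in WT mice (median 8579), and the pKO mice had 3964, 7578, 6048, 4660 and 5123. The genotypes did not overlap. Means were 8785 ± 989 (SD, n = 6) and 5475 ± 1398 (SD, n = 5), a log2 fold change of -0.71 (standard error 0.16, p = 0.000621, adjusted p = 0.257, limma; exact permutation p = 0.00216, the smallest possible). Lipa, the lysosomal acid lipase that cuts cholesterol esters, fell from 1904 ± 264 to 1272 ± 526 (log2 fold change -0.66, p = 0.0102, limma; exact permutation p = 0.0260). Cyp27a1, a mitochondrial sterol hydroxylase, fell from 227 ± 43.0 to 125 ± 42.9 (log2 fold change -0.89, p = 0.000653, adjusted p = 0.257, limma; exact permutation p = 0.00649). These genes stand beside the macrophage markers given above, some called lower and some not, whose part was not tested.

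Called genes outside the lysosome and mitochondrion included Mbtps2, Erlin1 and Ggps1. Mbtps2, the protease that makes the second cut in SREBP, fell from 64.4 ± 8.74 to 41.3 ± 11.9 (log2 fold change -0.66, p = 0.00609, limma; exact permutation p = 0.00649). The mean of Mbtps2 reached the minimum for a call in WT mice only. Erlin1, an endoplasmic reticulum protein, fell from 161 ± 47.7 to 107 ± 50.7 (log2 fold change -0.66, p = 0.0427, limma; exact permutation p = 0.0844). That call was lost in edgeR, in DESeq2 and without WT1, WT2, WT3, WT5, pKO1, pKO3 or pKO5. Ggps1, which makes geranylgeranyl diphosphate from farnesyl diphosphate, rose from 252 ± 30.7 to 331 ± 29.6 without overlap (log2 fold change 0.40, p = 0.00801, limma; exact permutation p = 0.00216). Adjusted p (limma) was 0.393 for Lipa, 0.370 for Mbtps2 and Ggps1 and 0.513 for Erlin1. The unadjusted calls of Npc2, Lipa, Cyp27a1, Mbtps2 and Ggps1 held in all 23 alternative fits.

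**Figure D5:**
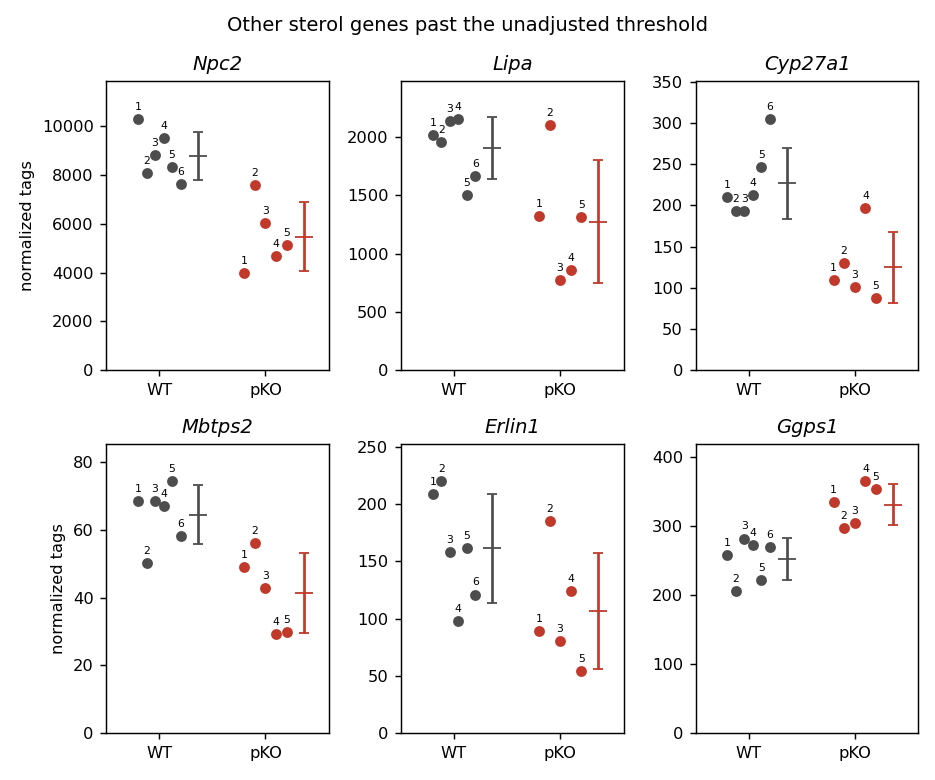
Normalized tags (y axis, from 0) of 6 called genes of the second list in each WT (grey, n = 6) and pKO (red, n = 5) mouse, numbered by replicate, with the mean and SD beside the points. The genotypes are apart for Npc2 (pKO lower) and Ggps1 (pKO higher) and overlap for Lipa, Cyp27a1, Mbtps2 and Erlin1.

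The promoters of the members were searched for letters known from sterol genes, since many synthesis genes share regulation by SREBP2. RefSeq windows from 250 bases before to 50 after the start, on GRCm38.p6, were found for 24 of the 30 members. The sterol element letters TCACNCCAC, on either strand, occurred in 1 of the 24 (4.17%), Hmgcs1, and in 1.44% of all 27025 genes with a window. The Hmgcs1 stretch printed here lies at chr13:119690204-119690232 on the plus strand and holds the match, in capitals, between flanking bases. The first base of the match is 137 bases before the start.
Hmgcs1: cgtcaccgtcTCACCCCACttcccaggtc
The letters CCAAT, the box bound by NF-Y, on either strand, occurred in 20 of the 24 members (83.3%) and in 14 of the 15 synthesis enzymes with a window (93.3%), all but Acat2, beside 41.1% of all genes. Counted by window, they were in 62.5% of the members' windows and in 37.4% of all windows. A match describes the letters in the window and is not a binding site by itself.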

How the data were processed

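SAGE libraries were prepared from eWAT RNA of single mice and sequenced on a SOLiD system. Tags were mapped by the authors with their own modification of the SOLiD SAGE Analysis Software, and the submitters' processing notes name mm10 and edgeR 3.2.3. The deposited values are a normalized signal for each gene, namely its tag count over a size factor for that library. Every value was a whole multiple of the value of 1 tag within a tolerance of 0.001, so whole tags were recovered. The annotation, the tag sites and the mapping parameters are not given in the sources used here.

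Values were compared between genotypes with limma 3.58.1 (R 4.3.3, lmFit and eBayes with a trend) on log2(value + 1) of all 15453 genes, with the Benjamini-Hochberg adjustment over all of them. Fold changes on this scale understate the change of genes with few tags. Intervals are 95% intervals from that fit. A gene was called at an unadjusted p of at most 0.05 with a mean of at least 50 in a genotype, or at an adjusted p of at most 0.1 with the same mean. These are the thresholds of the study. A two-sided exact permutation test covered the 462 splits of the mice, and 0.00216 is the smallest p it can give. Alternatives used edgeR 4.0.16 and DESeq2 1.42.0 on the recovered counts, limma-voom, other scalings, pseudocounts and filters, a replicate block and the omission of each mouse. The fit was checked on simulated data. No library batch was named in the labels, and none was modelled.

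Msmo1 was matched through its older symbol Sc4mol. The members and the gene lists were chosen with earlier results of these data known. The named genes were all listed members, Mest, and, from a second list of sterol genes, those called. Some genes of that list count in its totals but are not reported here. Any pair of libraries differed by more than sampling noise (lowest chi-square per degree of freedom 17.7), so each mouse counted once. Tag sites were located in GENCODE M21 transcripts of GRCm38, and promoter windows came from RefSeq (GRCm38.p6).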

Additional observations from a re-analysis of the deposited data

Results flagged for a closer look

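A single mouse stood apart from the rest of its genotype in 3 of the 62 groups of WT or pKO values examined, by Dixon's criterion, against 3.1 expected by chance. Soat1 in WT5 was at 202, with the other WT mice between 267 and 298. Without WT5 the log2 fold change of Soat1 was -0.54. Fdps in pKO1 was at 551, with the other pKO mice between 795 and 887, and the Fdps tag also occurs in other genes. Ebp in pKO2 was at 1152, with the other pKO mice between 782 and 831.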

How the results depend on the processing

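Over the 30 members and 23 alternative fits, 663 of 688 log2 fold changes kept their side of the threshold, 13 lost a call, 12 gained one and 0 called values changed sign, while 13 uncalled values did. The alternative without a minimum mean repeats the values of the main fit and changes only which genes can be called. The count of lower members was 3, and 1 with the replicate block, which leaves out WT replicate 6. It ran from 1 to 5 when single mice were left out. The count of higher members was 0, but 1 in edgeR and 1 in DESeq2 (Sqle), and from 0 to 2 without single mice. Over all genes, leaving out single mice gave 415 to 844 lower and 328 to 639 higher. Under the block Soat1 (log2 fold change -0.43) and Nceh1 (-0.40) lost their calls. Mice sharing a replicate number showed no shared deviation on average (mean correlation -0.024, beside 0.005 for different numbers). So few pairs cannot exclude a pairing. Soat1 was called in 22, Lss in 19 and Nceh1 in 15 of the 23 fits. Over all genes, total-count scaling gave 732 lower and 328 higher genes, beside 572 and 480, and called Mvd lower as well. Genes at an adjusted p of at most 0.1 numbered 5, but 121 in DESeq2 and 91 without pKO2, with 0 members among them. The cause of these shifts was not tested. With 6 and 5 mice, intervals of most members spanned 0.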
